A study of Homo sapiens with 23 samples.

Results

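The genes of cholesterol synthesis and sterol regulation were described here as 27 members named by symbol, and each was found once among the 60564 genes listed in every library. They were chosen by function and comprise 17 enzymes of the synthesis pathway, 4 genes of the SREBP2 control system and 6 genes of cholesterol transport and esterification. Cells make cholesterol from acetyl-CoA through the mevalonate pathway, which leads to farnesyl diphosphate, squalene and lanosterol, and a chain of sterol enzymes then turns lanosterol into cholesterol. The transcription factor SREBP2, encoded by SREBF2, drives these enzymes when sterols are low, and SCAP carries it from the endoplasmic reticulum to the Golgi. INSIG1 and INSIG2 hold SCAP back when sterols are plentiful, and both the intestine and the liver make cholesterol and handle dietary sterols.

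The samples were 23 mRNA-seq libraries of polyadenylated RNA from a microfluidic gut-liver chip, 11 from Caco-2 cells, a colorectal carcinoma line used as an intestinal epithelium, and 12 from HepG2 cells, a liver carcinoma line used as hepatocytes. Each line was kept alone (mono-culture) or connected to the other line by circulating medium (co-culture), and each culture was left without free fatty acids (control) or given FFAs, palmitic and oleic acid at 1 mM in total, for 1 day. Each of the 8 groups had 3 libraries, except the co-cultured Caco-2 control group with 2. All groups shared the device and the culture medium, the treatment medium was low in serum by the labels, and both lines are tumour lines, so a group stands for a carcinoma line and not for primary tissue. The labels do not say whether replicates came from separate chips, so p-values measure only the spread between these libraries, which may be technical. The deposited unit was TPM (each library's values add up to the same total and are scaled for transcript length), and TPM carry no read counts, so the depth of each library is unknown and no counting error is given.

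Of 8 intestinal markers, the summed level was 889 to 1273 TPM in Caco-2 libraries and 155 to 245 TPM in HepG2 libraries, where VIL1 made up most of it. CDX1, a defining transcription factor of the intestine, was listed at 0 to 0.18 TPM in Caco-2 cells, while CDX2 was at 60.4 to 136 TPM. GPA33, KRT20 and LGALS4 were also low there, with medians of 0.86, 1.25 and 5.05 TPM. The medians of VIL1, CDH17 and PHGR1 in Caco-2 libraries were 470, 400 and 73.9 TPM, so VIL1 and CDH17 made up most of the sum. Of 8 hepatocyte markers, the sum was 39742 to 59261 TPM in HepG2 and 3429 to 5596 TPM in Caco-2 libraries, so Caco-2 cells were not free of hepatocyte genes. The HepG2 libraries numbered 3 stood apart, with 21588 to 22416 genes above 0 TPM against 19259 to 20873 in those numbered 1 and 2. In each of the 4 HepG2 groups the library numbered 3 was the lowest for 11 of 26 members tested (10 of the 17 enzymes), against 13.6% of the genes tested. In the 3 Caco-2 groups with 3 libraries this held for 8 of 27 members, against 7.81% of the genes tested.

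Promoters are shown because the members are known as shared targets of SREBP2, and those printed belong to the genes on which the results below turn. RefSeq promoters on GRCh38.p14, 300 bases around each start site, were matched for 23 of the 27 members. The motif TCACNCCAC, letters of a sterol regulatory element, was searched on both strands and was held by 1.13% of 35116 promoters in the table, or 1.39% of the 27305 genes they belong to, and by 1 of the 23 matched members, SREBF2. The motif CCAAT, the box bound by NF-Y, was held by 34.6% of the promoters, or 39.7% of the genes, and by 19 of the 23 members, or 82.6%, on either strand. A match describes these letters alone. Capitals mark both motifs in the sequences, and CCAAT on the other strand reads ATTGG.
The INSIG1 window (chr7:155297628-155297927, plus strand) held 1 CCAAT, the INSIG2 window (chr2:118088221-118088520, plus strand) held 0, and the SREBF2 window (chr22:41832855-41833154, plus strand) held 1 of each motif. The HMGCS1 window (chr5:43313363-43313662, minus strand) held 2 CCAAT, the FDPS window (chr1:155308616-155308915, plus strand) 3 and the MSMO1 window (chr4:165327419-165327718, plus strand) 4.
INSIG1: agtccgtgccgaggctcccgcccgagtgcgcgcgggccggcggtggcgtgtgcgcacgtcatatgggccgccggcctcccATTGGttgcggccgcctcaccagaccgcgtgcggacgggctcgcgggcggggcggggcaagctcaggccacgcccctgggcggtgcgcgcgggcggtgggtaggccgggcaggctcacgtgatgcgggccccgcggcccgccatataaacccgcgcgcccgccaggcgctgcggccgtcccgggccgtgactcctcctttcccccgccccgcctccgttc
INSIG2: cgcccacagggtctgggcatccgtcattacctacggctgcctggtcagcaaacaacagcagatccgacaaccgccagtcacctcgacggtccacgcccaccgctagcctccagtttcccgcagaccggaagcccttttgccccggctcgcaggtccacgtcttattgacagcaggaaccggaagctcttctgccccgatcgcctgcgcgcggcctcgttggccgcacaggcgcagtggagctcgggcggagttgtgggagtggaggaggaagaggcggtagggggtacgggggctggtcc
SREBF2: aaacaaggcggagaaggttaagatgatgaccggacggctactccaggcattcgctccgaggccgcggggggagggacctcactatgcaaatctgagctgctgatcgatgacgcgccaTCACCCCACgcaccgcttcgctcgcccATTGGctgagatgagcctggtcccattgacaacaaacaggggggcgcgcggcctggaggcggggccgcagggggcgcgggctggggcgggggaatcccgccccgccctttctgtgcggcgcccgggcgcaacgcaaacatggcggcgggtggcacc
HMGCS1: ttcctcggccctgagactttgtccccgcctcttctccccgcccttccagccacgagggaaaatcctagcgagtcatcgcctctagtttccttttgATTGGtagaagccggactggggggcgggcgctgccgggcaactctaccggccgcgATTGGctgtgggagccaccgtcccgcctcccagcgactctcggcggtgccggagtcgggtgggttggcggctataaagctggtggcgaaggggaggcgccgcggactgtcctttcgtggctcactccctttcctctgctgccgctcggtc
FDPS: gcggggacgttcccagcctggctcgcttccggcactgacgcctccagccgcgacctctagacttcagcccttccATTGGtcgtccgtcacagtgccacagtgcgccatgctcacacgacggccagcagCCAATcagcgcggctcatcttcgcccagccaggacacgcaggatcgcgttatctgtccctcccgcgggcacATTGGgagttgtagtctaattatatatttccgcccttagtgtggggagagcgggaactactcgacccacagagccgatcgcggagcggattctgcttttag
MSMO1: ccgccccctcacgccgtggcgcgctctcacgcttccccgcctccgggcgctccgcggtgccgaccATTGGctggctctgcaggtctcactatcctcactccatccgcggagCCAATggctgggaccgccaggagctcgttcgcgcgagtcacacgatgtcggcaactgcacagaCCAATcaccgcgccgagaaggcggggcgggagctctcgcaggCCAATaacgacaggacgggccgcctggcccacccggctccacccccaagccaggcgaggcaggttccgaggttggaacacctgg

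Caco-2 and HepG2 cells both expressed the synthesis pathway at high levels, and they differed most in the INSIG pair. In mono-cultured control cells, 9 of 27 members were higher in HepG2 cells and 8 were lower, each with an adjusted p under 0.05 (limma on log2(TPM + 1), Benjamini-Hochberg over all genes), against 23.4% of the genes tested called higher and 39% called lower. The members called higher were thus 33.3% and those called lower 29.6% of the members. Over all libraries of every culture and treatment, 5 members were above every Caco-2 library in every HepG2 library and 7 were below, against 14.1% and 28.6% of genes. The median difference over the members was 0.16 on the log2 scale, against -0.20 over all genes. That median over all genes was -0.04 after median-of-ratios scaling and -0.003 after quantile normalization, so the scaling alone shifted differences between the lines. Relative to the median of all genes, all 17 members kept their direction, and SCAP was the closest to it at -0.26.

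**Figure D1:**
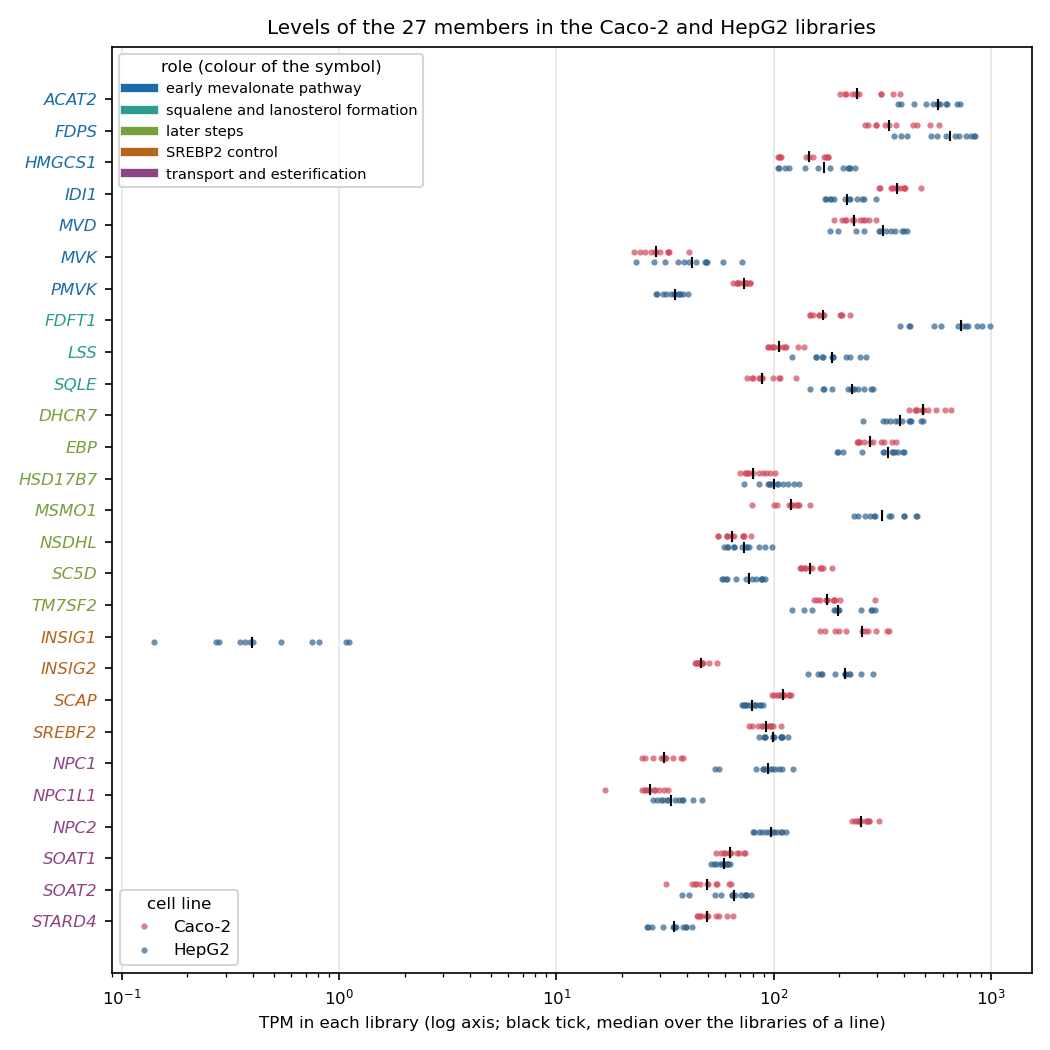
TPM of the 27 members (rows, coloured by role) in each of the 11 Caco-2 and 12 HepG2 libraries on a log axis, with a black tick at the median of each line. INSIG1 lies between 164 and 341 TPM in Caco-2 libraries and between 0.14 and 1.11 TPM in HepG2 libraries, and INSIG2 lies higher in every HepG2 library.

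INSIG1 and INSIG2 had the largest differences of the members between the lines. INSIG1 (chr7:155297776-155310235 on GRCh38, GENCODE v44) was at 263, 331 and 256 TPM in mono-cultured control Caco-2 cells and at 0.28, 0.27 and 0.39 TPM in HepG2 cells. It was at 201, 215 and 341 TPM in mono-cultured Caco-2 cells with FFAs, at 164 and 295 TPM in co-cultured control cells and at 191, 172 and 271 TPM in co-cultured cells with FFAs. The corresponding HepG2 values were 0.35, 0.75 and 0.81 TPM, then 0.14, 0.40 and 1.07 TPM, then 0.37, 0.54 and 1.11 TPM. No library of one line came near the other, and the median over libraries was 649 times higher in Caco-2 cells. The log2 difference in mono-cultured control cells was -7.75 ± 0.26 (SE, n = 3 against 3, limma adjusted p = 3.5e-15), on a scale whose pseudocount of 1 TPM understates it.

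The genes around INSIG1 were not all low in HepG2 cells. INSIG1-DT, a noncoding transcript that starts on the other strand 235 bases before INSIG1, had a median of 3.44 TPM in Caco-2 libraries and was listed at 0 to 0.18 TPM in HepG2 libraries. Within 400 kb, EN2, 148 kb after INSIG1, was at 1.14 to 2.33 TPM in Caco-2 and at 0 to 0.02 TPM in HepG2 libraries. PAXIP1, 295 kb before INSIG1, was at 11.6 to 15.8 TPM in Caco-2 and 7.98 to 11.1 TPM in HepG2 libraries, and RBM33, 334 kb after INSIG1, was at 27.04 to 41.8 TPM and 15.9 to 30.7 TPM. PAXIP1 and RBM33 were listed well above 0 in both lines. INSIG1, its divergent transcript and EN2, which lies closer to INSIG1 than PAXIP1 or RBM33, were at 1.11 TPM or less in every HepG2 library. The reason for these levels was not tested. PAXIP1-AS2, PAXIP1-DT and RBM33-DT also had medians of 4.47 to 8.47 TPM in Caco-2 and 4.54 to 17.1 TPM in HepG2 libraries. The window was chosen after the INSIG1 values were seen.

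INSIG2, the second INSIG gene, was ordered the other way. INSIG2 (chr2:118088452-118110997) was at 44.3, 46.8 and 43.98 TPM in mono-cultured control Caco-2 cells and at 214, 223 and 253 TPM in HepG2 cells. With FFAs in mono-culture it was at 45.2, 46.7 and 43.5 TPM in Caco-2 and at 144, 214 and 214 TPM in HepG2 cells. In co-culture it was at 46.4 and 45.2 TPM without and 50.6, 55.1 and 47.3 TPM with FFAs in Caco-2 cells, and at 166, 193 and 224 TPM without and 166, 161 and 286 TPM with FFAs in HepG2 cells. The lines did not overlap, and INSIG2 was higher in HepG2 cells by 2.32 ± 0.18 on the log2 scale (SE, n = 3 against 3, limma adjusted p = 9.7e-10). Within HepG2 cells INSIG2 was among the 10 highest members (median 214 TPM), whereas in Caco-2 cells it ranked 24 of 27 (median 46.4 TPM).

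The other control genes, SREBF2 and SCAP, lay closer together in the lines than the INSIG pair. SREBF2 was at 88.2, 88.9 and 97.3 TPM in mono-cultured control Caco-2 cells and at 98.9, 117 and 86.0 TPM in HepG2 cells, and these overlapped. Over all libraries SREBF2 ranged from 77.0 to 108 TPM in Caco-2 cells and from 86.0 to 117 TPM in HepG2 cells. Its difference between the lines was 0.13 on the log2 scale, with a 95% interval from -0.14 to 0.39 (n = 3 against 3, limma adjusted p = 0.39). SCAP ranged from 97.9 to 121 TPM in Caco-2 and from 71.5 to 89.3 TPM in HepG2 libraries, without overlap in any group. SCAP was lower in HepG2 cells by 0.46 ± 0.10 on the log2 scale (SE, n = 3 against 3, limma adjusted p = 0.00074), but its adjusted p was 0.052 after median-of-ratios scaling and 0.070 after quantile normalization.

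Among the enzymes, the 3 that form squalene and lanosterol were all higher in HepG2 cells. FDFT1, squalene synthase, was at 207, 225 and 147 TPM in mono-cultured control Caco-2 cells and at 771, 861 and 423 TPM in HepG2 cells. The groups did not overlap, and the log2 difference was 1.78 ± 0.29 (SE, n = 3 against 3, limma adjusted p = 2.2e-05). SQLE, squalene monooxygenase, a rate-limiting enzyme of the pathway, was at 106, 127 and 79.9 TPM in those Caco-2 cells and at 228, 282 and 148 TPM in HepG2 cells, without overlap. SQLE was higher in HepG2 cells by 1.04 ± 0.20 (log2, SE, n = 3 against 3, limma adjusted p = 0.00018). LSS, lanosterol synthase, was higher by 0.65 ± 0.19, although HepG2 library 3, at 121 TPM, lay within the Caco-2 range. FDFT1 had the highest median of all members in HepG2 cells, 727 TPM, and ranked 10 of 27 in Caco-2 cells, at 168 TPM.

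Of the 7 early mevalonate enzymes, ACAT2 (acetoacetyl-CoA thiolase) was higher in HepG2 cells by 0.77 ± 0.23 on the log2 scale, and IDI1 (isopentenyl diphosphate isomerase) and PMVK (phosphomevalonate kinase) were lower. IDI1 was at 363, 477 and 383 TPM in mono-cultured control Caco-2 cells and at 184, 225 and 183 TPM in HepG2 cells, a difference of -1.04 ± 0.15. PMVK was at 67.8, 75.6 and 77.8 TPM against 40.5, 37.2 and 32.1 TPM, a difference of -0.996 ± 0.101, and neither IDI1 nor PMVK overlapped between the lines in any library. HMGCS1, the cytosolic HMG-CoA synthase, differed by 0.33 with a 95% interval from -0.20 to 0.86, and FDPS (farnesyl diphosphate synthase), MVD (mevalonate diphosphate decarboxylase) and MVK (mevalonate kinase) differed by 0.36, 0.22 and 0.09, none of these past the adjusted threshold.

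Of the 7 enzymes after lanosterol, MSMO1 was higher in HepG2 cells and SC5D and DHCR7 were lower. MSMO1, a methylsterol monooxygenase, was at 130.4, 148 and 100 TPM in mono-cultured control Caco-2 cells and at 289, 452 and 277 TPM in HepG2 cells, a log2 difference of 1.40 ± 0.17 without overlap. SC5D, a sterol desaturase, was at 168, 185 and 148 TPM against 88.2, 88.3 and 57.7 TPM, a difference of -1.11 ± 0.14. DHCR7, the last reductase of the pathway, was lower in HepG2 cells by 0.61 ± 0.18 with overlapping libraries, and it had the highest median of all members in Caco-2 cells (486 TPM). TM7SF2 (a sterol reductase), HSD17B7 (a ketosterol reductase), NSDHL (a sterol dehydrogenase) and EBP (a sterol isomerase) differed by 0.38, 0.16, 0.02 and -0.11 on the log2 scale, and none passed the adjusted threshold. EBP was at 0.09 relative to the median of all genes, so its direction depended on the scaling.

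The pair of lysosomal cholesterol exporters were ordered in opposite ways. NPC1, the membrane protein of the pair, was at 37.4, 31.7 and 25.5 TPM in mono-cultured control Caco-2 cells and at 89.0, 101 and 106 TPM in HepG2 cells, higher by 1.63 ± 0.24 on the log2 scale. NPC2, its soluble partner, was at 274, 276 and 229 TPM in Caco-2 and at 101, 99.0 and 114 TPM in HepG2 cells, a difference of -1.301 ± 0.099. Neither gene overlapped between the lines in any library of any group. NPC1L1, the intestinal cholesterol uptake protein, was at 31.4, 28.6 and 24.9 TPM in Caco-2 and at 37.9, 46.8 and 32.2 TPM in HepG2 cells (difference 0.44 ± 0.18, limma adjusted p = 0.044).

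The cholesterol-esterifying enzymes were close to each other in both lines. SOAT1, the widely expressed acyltransferase, was at 59.1, 63.2 and 67.8 TPM in mono-cultured control Caco-2 cells and at 53.3, 51.5 and 58.9 TPM in HepG2 cells (difference -0.21, 95% interval from -0.44 to 0.01). SOAT2, the acyltransferase of intestine and liver, was at 62.3, 54.7 and 32.1 TPM against 74.5, 64.3 and 74.6 TPM (difference 0.56 ± 0.24, limma adjusted p = 0.049). STARD4, a cytosolic sterol carrier, was lower in HepG2 cells by 0.79 ± 0.17 on the log2 scale. Of the 17 calls between the lines, 11 held under every alternative run, and those of SOAT2, NPC1L1, LSS, DHCR7, ACAT2 and SCAP did not under at least 1. Without library 3 of mono-cultured control Caco-2 cells the difference of SOAT2 was 0.28 (adjusted p = 0.32), and without library 2 of mono-cultured control HepG2 cells that of NPC1L1 was 0.30 (adjusted p = 0.20).

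Co-culture was the condition in which the synthesis enzymes lay lower in both lines. No member passed the adjusted threshold in the fit of the 4 groups of a line without a term for the replicate number. The calls with that term differed and are given in the last section. Co-cultured libraries of both lines may come from the same chips, which the labels do not say, so the lines may not be independent here. The mean log2(TPM + 1) of the 17 enzymes was 7.44, 7.59 and 7.09 in mono-cultured control Caco-2 libraries and 7.29, 7.38 and 7.23 with FFAs. In co-culture it was 7.16 and 7.13 without FFAs and 7.16, 7.11 and 7.16 with FFAs, and 5 of the 6 mono-culture libraries lay above all 5 co-culture libraries. In HepG2 cells it was 7.72, 7.88 and 7.11 in mono-cultured control libraries, 7.93, 7.97 and 7.60 in mono-culture with FFAs, 7.39, 7.62 and 7.24 in co-cultured control libraries and 7.69, 7.63 and 7.14 in co-culture with FFAs. The HepG2 libraries overlapped between the cultures, and those numbered 3 had the lowest mean in every group.

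**Figure D2:**
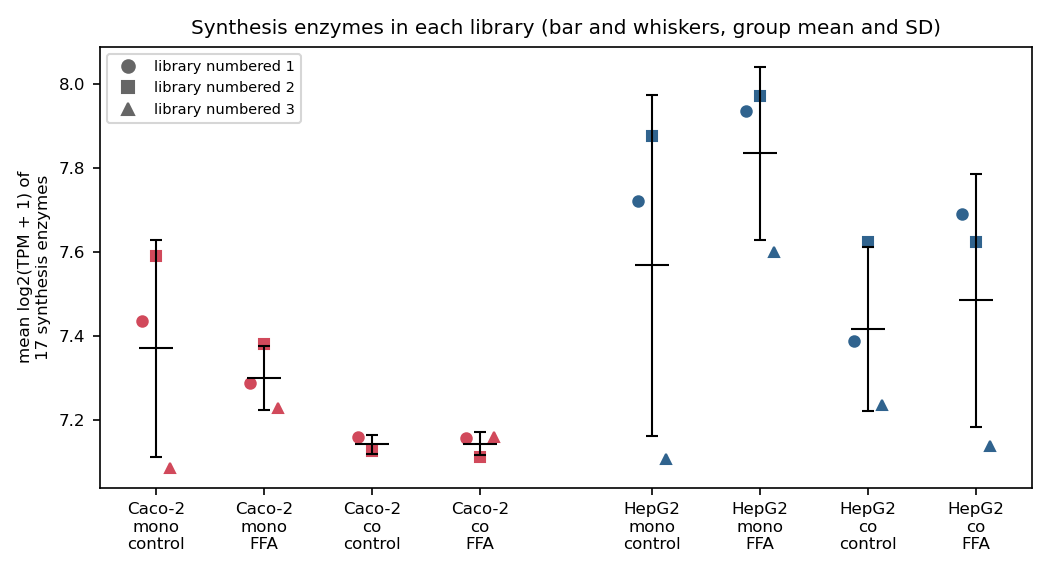
Mean log2(TPM + 1) of the 17 synthesis enzymes in each library (points, shape by replicate number), with the group mean and SD (bar and whiskers) for the 4 groups of each line. The 5 co-cultured Caco-2 libraries lie between 7.11 and 7.16, and the HepG2 library numbered 3 is the lowest of each group.

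Averaged over control and FFAs, the co-culture difference was below 0 for 21 of 27 members in Caco-2 cells and for 23 of 26 in HepG2 cells, where INSIG1 was too low to be tested. The median over members was -0.14 in Caco-2 cells against 0.03 over all genes, and -0.19 in HepG2 cells against -0.02 over all genes. With 1 library left out at a time these medians stayed below 0, from -0.20 (without mono-cultured control library 3) to -0.091 (without co-cultured control library 1) in Caco-2 cells, and from -0.28 (without mono-cultured control library 3) to -0.12 (without mono-cultured control library 2) in HepG2 cells. Among the 17 enzymes it was below 0 for 16 in Caco-2 cells and for 17 in HepG2 cells. With an adjusted p under 0.05 in limma, 0 members were called in both lines, against 0% of the genes tested in Caco-2 cells and 0.0561% of those tested in HepG2 cells. By the unadjusted p, taken at under 0.05, 8 members were lower in co-cultured Caco-2 cells against 4.4% of genes, and 1 was higher against 6.07% of genes. In HepG2 cells 5 members were lower against 7.04% of genes, and 0 were higher against 5.51% of genes. Since the TPM of each library add up to the same total, these differences are in the share of the RNA, and amounts per cell are unknown.

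**Figure D3:**
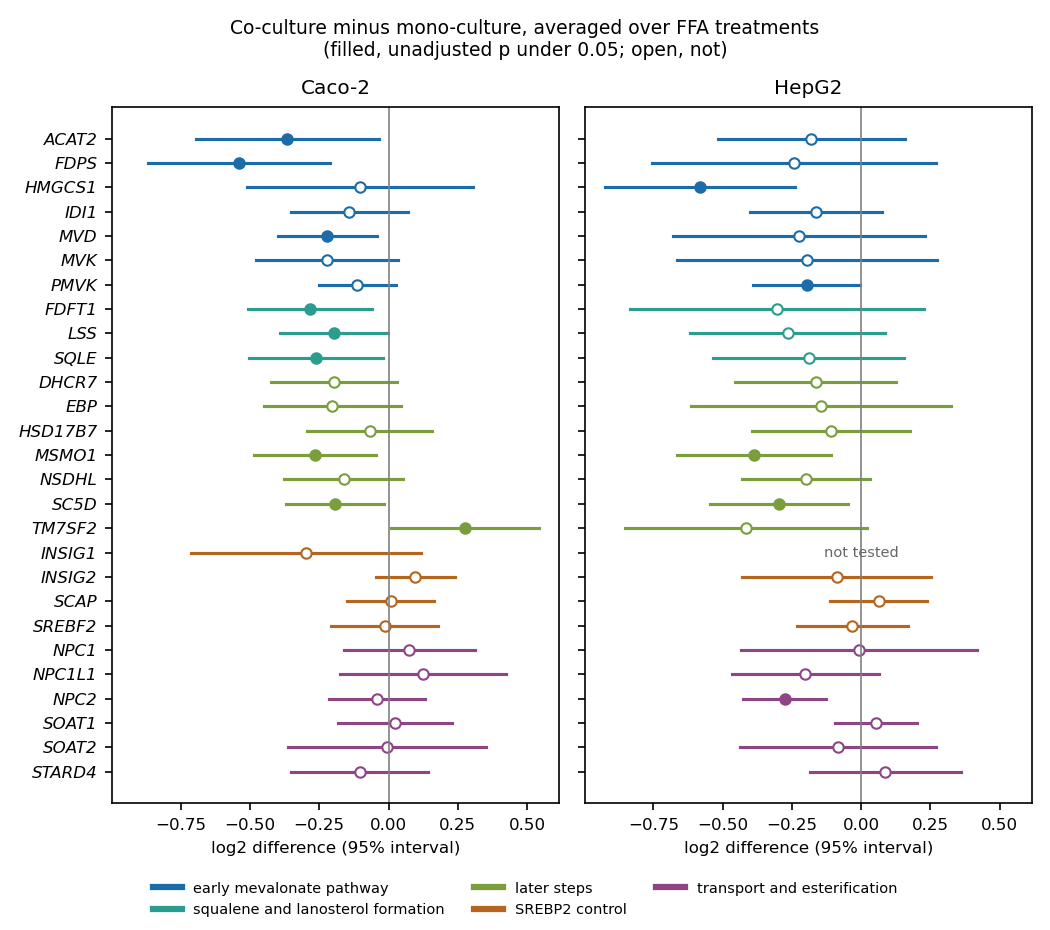
Difference of co-culture minus mono-culture on the log2(TPM + 1) scale, averaged over control and FFAs, for the 27 members (rows, coloured by role) in Caco-2 (left) and HepG2 cells (right), with 95% intervals from limma and filled points at an unadjusted p under 0.05. All but TM7SF2 of the 17 enzymes lie below 0 in Caco-2 cells and all 17 do in HepG2 cells.

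In Caco-2 cells the 3 members with the smallest p for co-culture were FDPS, FDFT1 and MVD. FDPS (chr1:155308748-155320666), which makes farnesyl diphosphate, was at 524, 579 and 327 TPM in mono-cultured control cells and 456, 439 and 341 TPM in mono-culture with FFAs. In co-culture it was at 366 and 264 TPM without and at 297, 295 and 271 TPM with FFAs. Only 1 co-cultured library, the first without FFAs, lay above the lowest mono-cultured ones, and the difference was -0.54 ± 0.15 (SE, unadjusted p = 0.0039, limma adjusted p = 0.31). FDFT1 was at 207, 225 and 147 TPM and, with FFAs, at 201, 203 and 170.2 TPM in mono-culture, and at 152 and 147 TPM and, with FFAs, at 168, 161 and 161 TPM in co-culture. Mono-cultured control library 3 was as low as the co-cultured ones, and the difference of FDFT1 was -0.28 ± 0.10 (limma adjusted p = 0.40). MVD was at 274, 297 and 230.4 TPM without and 249, 259 and 235 TPM with FFAs in mono-culture, and at 264 and 214 TPM without and 215, 207 and 190.0 TPM with FFAs in co-culture, a difference of -0.22 ± 0.08 (limma adjusted p = 0.40). MSMO1, ACAT2, SQLE, SC5D and LSS were the other 5 members lower at an unadjusted p under 0.05, with differences from -0.36 to -0.19 on the log2 scale.

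TM7SF2 was the only enzyme with a co-culture difference above 0 in Caco-2 cells. TM7SF2 was at 189, 176 and 154 TPM without and 163, 175 and 158 TPM with FFAs in mono-cultured Caco-2 cells, and at 192 and 201 TPM without and 187, 294 and 176 TPM with FFAs in co-cultured ones. The difference was 0.28 ± 0.12 (unadjusted p = 0.044, limma adjusted p = 0.46), and co-culture library 2 with FFAs, at 294 TPM, was far above the rest. In HepG2 cells TM7SF2 was at 280.0, 293 and 139 TPM and, with FFAs, at 253, 284 and 191 TPM in mono-culture. In co-culture it was at 189, 199 and 151 TPM and, with FFAs, at 198, 199.9 and 122 TPM, a difference of -0.42 ± 0.20 (limma adjusted p = 0.42). The co-culture effect on TM7SF2 differed between the lines by -0.69 ± 0.26 (HepG2 minus Caco-2, unadjusted p = 0.015, limma adjusted p = 0.21).

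In HepG2 cells the 3 members with the smallest p for co-culture were NPC2, HMGCS1 and MSMO1. NPC2 (chr14:74476192-74494177) was at 101, 99.0 and 114 TPM without and 103, 109 and 108 TPM with FFAs in mono-culture. In co-culture NPC2 was at 81.0, 92.6 and 80.6 TPM without and 88.6, 85.3 and 95.5 TPM with FFAs. All 6 co-cultured libraries lay below all 6 mono-cultured ones, which held for 1 of 26 members against 0.758% of genes, while 0 members lay above against 0.589% of genes. The difference was -0.28 ± 0.07 (unadjusted p = 0.0018, limma adjusted p = 0.14). In Caco-2 cells no member was separated in this way, against 0.63% of genes below and 0.749% above, and NPC2 was at 229 to 276 TPM in mono-culture and 238 to 304 TPM in co-culture.

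HMGCS1 (chr5:43287470-43313512), which makes HMG-CoA for the pathway, was at 208, 181 and 139.7 TPM in mono-cultured control HepG2 cells and at 221, 237 and 221 TPM in mono-culture with FFAs. In co-culture HMGCS1 was at 112, 118 and 105 TPM without and at 225, 161 and 106 TPM with FFAs. The co-cultured control libraries lay below every mono-cultured library, whereas those with FFAs spread across both ranges. The difference averaged over treatments was -0.58 ± 0.16 (unadjusted p = 0.0031, limma adjusted p = 0.18), and the difference without FFAs alone was -0.63 ± 0.22 (limma adjusted p = 0.63). In Caco-2 cells HMGCS1 was at 142, 178 and 105 TPM without and 106, 171 and 178 TPM with FFAs in mono-culture, and at 107 and 145 TPM without and 152, 108 and 174 TPM with FFAs in co-culture. These overlapped throughout, and the co-culture difference was -0.10 with a 95% interval from -0.51 to 0.30.

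MSMO1 (chr4:165327667-165343164) was at 289, 452 and 277 TPM without and 399, 457 and 398 TPM with FFAs in mono-cultured HepG2 cells. In co-culture MSMO1 was at 233, 293 and 246 TPM without and 338, 348 and 263 TPM with FFAs, a difference of -0.39 ± 0.13 (unadjusted p = 0.010, limma adjusted p = 0.26). In Caco-2 cells MSMO1 was at 130.4, 148 and 100 TPM without and 129, 124 and 128 TPM with FFAs in mono-culture, and at 79.9 and 104 TPM without and 121, 121 and 118 TPM with FFAs in co-culture. The difference there was -0.26 ± 0.10 (limma adjusted p = 0.41). SC5D and PMVK also passed the unadjusted threshold in co-cultured HepG2 cells, with differences of -0.30 and -0.20 on the log2 scale.

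**Figure D4:**
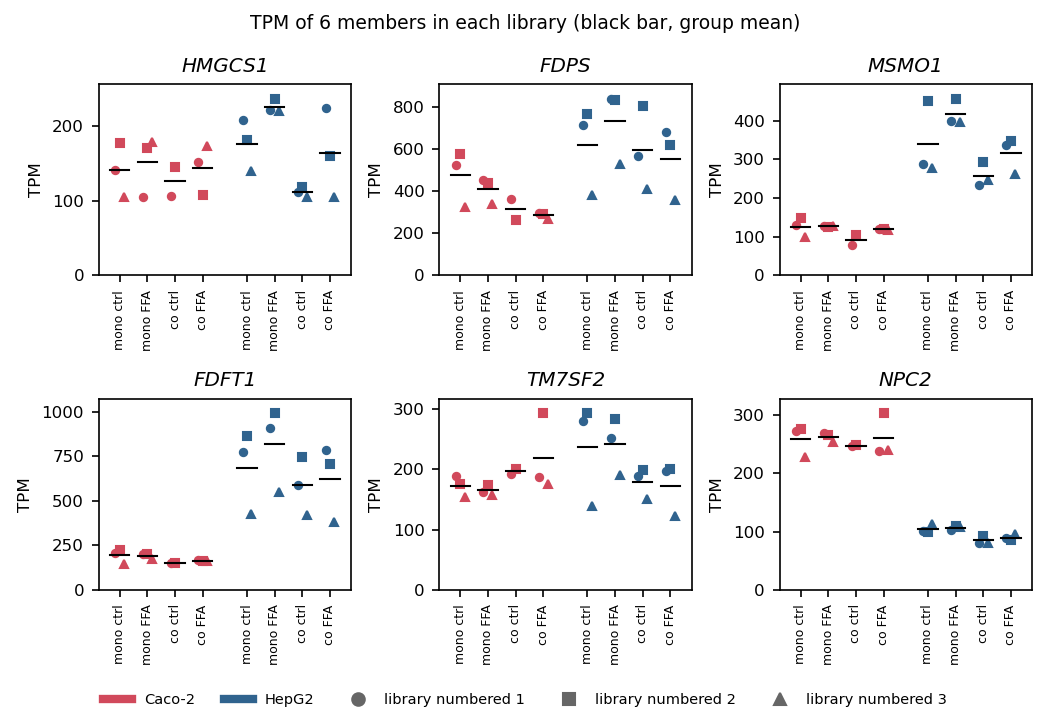
TPM of 6 members (HMGCS1, FDPS, MSMO1, FDFT1, TM7SF2 and NPC2) in each library, with replicate numbers as shapes and black bars at the group means, for the 4 groups of Caco-2 (red) and HepG2 cells (blue). NPC2 in HepG2 cells lies at 80.6 to 95.5 TPM in co-culture and at 99.0 to 114 TPM in mono-culture, and the HepG2 libraries numbered 3 are low for FDPS and FDFT1.

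SQLE, the control genes and the other transport genes overlapped between the cultures. SQLE was at 106, 127 and 79.9 TPM without and 99.7, 108 and 88.4 TPM with FFAs in mono-cultured Caco-2 cells, and at 88.7 and 80.8 TPM without and 85.4, 75.3 and 86.2 TPM with FFAs in co-cultured ones (difference -0.26 ± 0.11, limma adjusted p = 0.45). In HepG2 cells SQLE was at 228, 282 and 148 TPM without and 261, 285 and 220.1 TPM with FFAs in mono-culture, and at 185, 231 and 171 TPM without and 234, 244 and 169 TPM with FFAs in co-culture. That difference was -0.19 with a 95% interval from -0.53 to 0.15. SREBF2 differed by -0.01 in Caco-2 cells (95% interval -0.21 to 0.18) and by -0.03 in HepG2 cells (95% interval -0.23 to 0.17). INSIG1 in Caco-2 cells differed by -0.30 with a 95% interval from -0.71 to 0.12.

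The summed levels of the cell type markers overlapped between the cultures. The intestinal markers summed to 201 to 245 TPM in mono-cultured HepG2 libraries and to 155 to 211 TPM in co-cultured ones, and the hepatocyte markers summed to 49416 to 59261 TPM and 39742 to 55405 TPM. In Caco-2 cells the hepatocyte markers summed to 3429 to 5266 TPM in mono-culture and 4266 to 5596 TPM in co-culture, and the intestinal markers to 889 to 1080 TPM and 979 to 1273 TPM. The sums hide hepatocyte markers that did not overlap in Caco-2 cells. FGA was at 31.5 to 48.3 TPM in mono-culture and 50.7 to 75.2 TPM in co-culture, and FGB at 39.3 to 118 TPM and 147 to 221 TPM. Of all genes, 0.749% lay higher in this way. ALB overlapped, at 321 to 604 TPM and 328 to 769 TPM. Some intestinal genes were higher in single HepG2 libraries of 1 group. CDH17, an intestinal cadherin, was at 2.75, 0.58 and 1.79 TPM in co-cultured HepG2 cells with FFAs and at 0.05 to 0.76 TPM in the other 9 HepG2 libraries, against 354 to 480 TPM in Caco-2 libraries. PHGR1 was at 1.63, 0 and 0.39 TPM in that group and was listed at 0 in the other 9, whereas CDX2 was at 0.02 to 0.73 TPM over all HepG2 libraries. The part of these marker levels, and of the libraries numbered 3, in the member values was not tested beyond leaving libraries out. With the libraries numbered 1 and 2 alone, the median over members was -0.21 in Caco-2 cells against 0.04 over all genes, and 13 members were lower at an unadjusted p under 0.05 against 5.91% of genes. For HepG2 the median was -0.24 against -0.04, and 14 members were lower against 8.97% of genes. That setting was chosen after the data had been seen.

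Without FFAs alone, co-culture gave 3 members at an unadjusted p under 0.05 in Caco-2 cells against 5.43% of genes, and 0 at an adjusted p under 0.05 against 0.0199%. With FFAs it gave 3 members against 6.09% of genes, and 0 adjusted against 0%. In HepG2 cells the counts were 2 members against 7.53% of genes without FFAs and 4 members against 5.63% with FFAs, with 0 adjusted against 0% in both. MSMO1 had the smallest p of the members in Caco-2 cells without FFAs (-0.45 ± 0.15, limma adjusted p = 0.87). For Caco-2 cells the median over members was -0.16 without and -0.12 with FFAs, and for HepG2 cells -0.07 without and -0.28 with FFAs. Single libraries decided the medians without FFAs. In Caco-2 cells that median was -0.34 without mono-cultured control library 3, -0.062 without mono-cultured control library 2 and -0.068 without co-cultured control library 1. In HepG2 cells it was -0.29 without mono-cultured control library 3, -0.18 without co-cultured control library 2 and 0.04 without mono-cultured control library 2, where 14 of 26 members lay above 0. With FFAs the median was -0.078 without mono-cultured library 3 in Caco-2 cells and -0.17 without co-cultured library 3 in HepG2 cells.

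FFAs for 1 day left the members of Caco-2 cells near the background, while in HepG2 cells most enzymes lay higher to an extent that depended on single libraries, again with no member past the adjusted threshold. Averaged over the cultures, the FFA difference was above 0 for 11 of 27 members in Caco-2 cells and for 20 of 26 in HepG2 cells, including 15 of the 17 enzymes in the latter. The median over members was -0.05 in Caco-2 cells against 0.01 over all genes, and 0.10 in HepG2 cells against 0.01. With 1 library left out at a time the HepG2 median ranged from 0.017 (without mono-cultured control library 3, with 15 of 26 members above 0) to 0.19 (without mono-cultured control library 2). In mono-culture alone that median was 0.19 with all libraries and -0.028 without control library 3. The Caco-2 median ranged from -0.10 (without mono-cultured control library 3) to 0.009 (without mono-cultured control library 2). With an adjusted p under 0.05 in limma, 0 members were called in both lines, against 0% of the genes tested in each. At an unadjusted p under 0.05, 0 members were higher in Caco-2 cells against 2.59% of genes, and 0 were lower against 1.39%. In HepG2 cells 3 members were higher against 1.85% of genes, and 1 was lower against 1.63%.

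**Figure D5:**
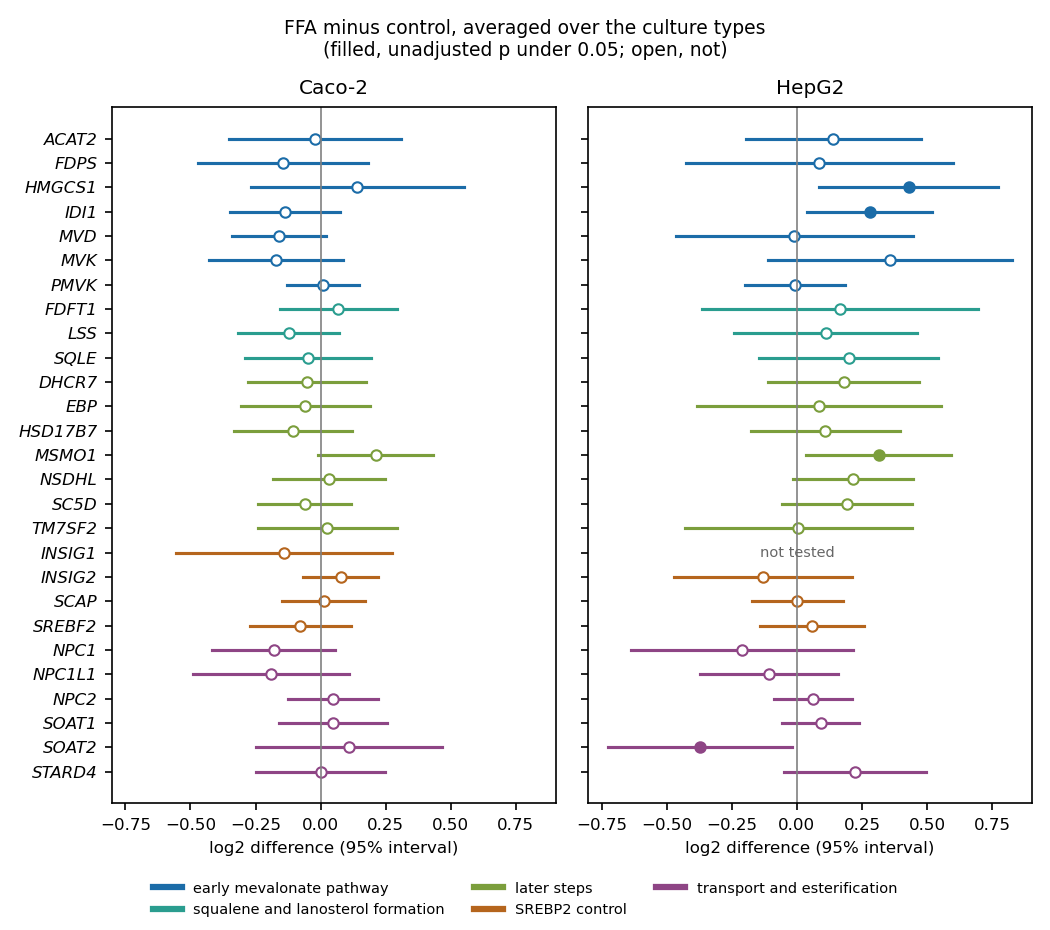
Difference of FFAs minus control on the log2(TPM + 1) scale, averaged over mono- and co-culture, for the 27 members (rows, coloured by role) in Caco-2 (left) and HepG2 cells (right), with 95% intervals from limma and filled points at an unadjusted p under 0.05. HMGCS1, IDI1 and MSMO1 lie above 0 and SOAT2 below 0 in HepG2 cells, and every Caco-2 interval includes 0.

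The 3 members with the smallest p for FFAs in HepG2 cells were HMGCS1, IDI1 and MSMO1. HMGCS1, at the values given above, was at 105 to 208 TPM in the 6 control libraries and at 106 to 237 TPM in the 6 libraries with FFAs, a difference of 0.43 ± 0.16 (unadjusted p = 0.018, limma adjusted p = 1.00). IDI1, which isomerizes isopentenyl diphosphate, was at 184, 225 and 183 TPM without and 297, 243 and 254 TPM with FFAs in mono-culture, where the groups did not overlap. In co-culture IDI1 was at 173, 222 and 189.6 TPM without and 260.0, 214 and 174 TPM with FFAs, where they did, and the averaged difference was 0.28 ± 0.11 (limma adjusted p = 1.00). MSMO1 differed by 0.31 ± 0.13 (limma adjusted p = 1.00). The FFA effect on IDI1 differed between the lines by 0.42 ± 0.15 (HepG2 minus Caco-2, unadjusted p = 0.014, limma adjusted p = 1.00), and in Caco-2 cells IDI1 was at 347 to 477 TPM without and 305 to 402 TPM with FFAs.

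In HepG2 cells SOAT2 alone was lower with FFAs by the unadjusted threshold. SOAT2 was at 74.5, 64.3 and 74.6 TPM without and 40.8, 57.0 and 78.9 TPM with FFAs in mono-culture, and at 73.8, 71.0 and 64.4 TPM without and 38.1, 53.9 and 66.6 TPM with FFAs in co-culture. Library 1 was the lowest of both FFA groups and library 3 was within the control range, and the difference was -0.37 ± 0.16 (unadjusted p = 0.041, limma adjusted p = 1.00). In Caco-2 cells SOAT2 was at 62.3, 54.7 and 32.1 TPM without and 49.9, 54.3 and 42.2 TPM with FFAs in mono-culture, and at 43.9 and 45.6 TPM without and 49.4, 63.5 and 43.5 TPM with FFAs in co-culture, with a difference of 0.11 (95% interval -0.25 to 0.47). SOAT1 ranged from 54.3 to 73.8 TPM in Caco-2 libraries and from 51.5 to 63.2 TPM in HepG2 libraries. Its FFA difference was 0.05 (95% interval -0.16 to 0.25) in Caco-2 cells and 0.09 (95% interval -0.06 to 0.24) in HepG2 cells.

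NPC1 in HepG2 cells showed the same low first library. NPC1 was at 89.0, 101 and 106 TPM without and 55.8, 96.4 and 98.3 TPM with FFAs in mono-culture, and at 89.1, 82.8 and 109.8 TPM without and 53.8, 91.6 and 122 TPM with FFAs in co-culture, a difference of -0.21 with a 95% interval from -0.64 to 0.22. NPC1L1 was at 27.8 to 46.8 TPM in all HepG2 libraries and at 16.8 to 32.7 TPM in all Caco-2 libraries, with FFA differences of -0.11 and -0.19. In Caco-2 cells the 3 members with the smallest p for FFAs were MSMO1 (0.21 ± 0.10, unadjusted p = 0.059), MVD (-0.16 ± 0.08, unadjusted p = 0.075) and NPC1 (-0.18 ± 0.11, unadjusted p = 0.12), each at a limma adjusted p of 0.99. NPC1 in Caco-2 cells was at 37.4, 31.7 and 25.5 TPM without and 28.0, 30.4 and 32.1 TPM with FFAs in mono-culture, and at 38.1 and 34.3 TPM without and 31.1, 24.8 and 31.0 TPM with FFAs in co-culture.

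Within single cultures the counts were small. FFAs in mono-cultured Caco-2 cells gave 0 members at an unadjusted p under 0.05 against 2.61% of genes, and 0 adjusted against 0%. In co-cultured Caco-2 cells they gave 1 member, MSMO1 (0.39 ± 0.15), against 2.83% of genes, and 0 adjusted against 0.0199%. In HepG2 cells the counts were 2 members, IDI1 and NSDHL, against 2.24% in mono-culture and 0 against 1.84% in co-culture, with 0 adjusted against 0% in both. The FFA effect did not differ detectably between the cultures, with 0 members past the unadjusted threshold in Caco-2 cells against 1.94% of genes and 0 in HepG2 cells against 1.16%, and 0 adjusted against 0% in both. Between the lines, the FFA effect differed for 1 member unadjusted against 2.99% of genes and 0 adjusted against 0.0182%. The co-culture effect differed for 2 members, TM7SF2 and NPC2, unadjusted against 14.6% of genes, and for 0 adjusted against 0.533%.

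By the criteria of the study, a one-way analysis of variance over the 4 groups at an unadjusted p under 0.05 with at least a 1.2-fold difference between a pair of group means (0.263 on the log2 scale), 3 of 27 members qualified in HepG2 cells, against 3.56% of the genes above 0 TPM. They were NPC2, HMGCS1 and MSMO1. Each had its highest group mean in mono-culture with FFAs and its lowest in co-cultured control cells. Their largest group differences on the log2 scale were 0.34, 1.01 and 0.70. In Caco-2 cells 0 of 27 members met the criteria, against 3.08% of genes. These shares are over 29942 genes in HepG2 and 31100 in Caco-2 cells, of which 14255 and 15081 reached a mean of 1 TPM in any group. The shares were thus not matched to the members in level. After Benjamini-Hochberg adjustment 0 members remained in HepG2 cells. Without library 3 of the mono-cultured control group the count was 8 members in Caco-2 cells and 5 members in HepG2 cells. It was 1 in HepG2 cells without any single library of the co-cultured control or the mono-cultured FFA group, and 1 in Caco-2 cells without either co-cultured control library. The shares of genes above are for all libraries. Whether more genes as a whole met the criteria with a library left out is not given, so these counts describe the members alone.

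Of 24 other genes of the pathway, 23 were tested in Caco-2 and 21 in HepG2 cells, and 0 passed the adjusted threshold in any contrast averaged over treatments or cultures. SREBF1, which encodes SREBP1, the regulator of fatty acid synthesis, had the smallest p for FFAs in both lines. SREBF1 was at 82.9, 81.7 and 64.5 TPM without and 47.1, 64.6 and 62.3 TPM with FFAs in mono-cultured Caco-2 cells, and at 82.1 and 71.7 TPM without and 49.4, 44.6 and 52.3 TPM with FFAs in co-cultured ones. Only mono-culture library 2 with FFAs reached the lowest control library, and the difference was -0.52 ± 0.10 (unadjusted p = 0.00038, limma adjusted p = 0.70). In HepG2 cells SREBF1 was at 41.6, 44.1 and 30.5 TPM without and 28.7, 36.5 and 27.5 TPM with FFAs in mono-culture, and at 58.2, 52.9 and 46.0 TPM without and 29.9, 46.0 and 33.2 TPM with FFAs in co-culture. The difference was -0.42 ± 0.13 (unadjusted p = 0.0089, limma adjusted p = 1.00). For FFAs, the other differences past the unadjusted threshold were those of GRAMD1C (0.45) and STARD3 (-0.23) in Caco-2 cells and of MYLIP (-0.53) and LBR (0.19) in HepG2 cells. For co-culture, these included MYLIP (0.35) and GGPS1 (-0.21) in Caco-2 cells, and ERG28 (-0.42), CYP27A1 (-0.24) and SREBF1 (0.33) in HepG2 cells. Between the lines, 5 of 23 were higher in HepG2 cells and 8 were lower by the adjusted threshold, against 23.4% and 39% of the genes tested, from GRAMD1B (-2.03) to CYP27A1 (2.17).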

How the data were processed

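The labels gave each library's group and replicate number. The authors deposited TPM for 60564 genes per library. Per the labels and the methods of the study, reads were filtered with Bowtie2 2.1.0, mapped to GRCh38 with STAR 2.7.1a and quantified with RSEM 1.3.0. Mitochondrial, rRNA and tRNA reads were removed before TPM were computed, which sets the scale of every value. TPM hold no counts, so no count test, depth or detection limit is given. The labels give 0.5% serum in the treatment medium, whereas the methods of the study describe albumin without serum. The extract protocol in the labels names another cell type.

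Values were analysed as log2(TPM + 1) with R 4.3.3 and limma 3.58.1 (eBayes with a trend). The 4 groups of a line entered 1 fit, with genes whose mean reached 1 TPM in any group (15081 in Caco-2, 14255 in HepG2 cells) and Benjamini-Hochberg adjustment at 0.05. A fit of all 8 groups gave the comparisons between lines and treated all libraries as independent, although co-cultured lines may share chips. Fold changes on this scale understate those of low genes. For the criteria of the study, the one-way analysis of variance was computed with scipy 1.17.1, numpy 2.4.6 and pandas 2.3.3 under Python 3.11.15 on genes not at 0 TPM throughout a line. Figures were drawn with matplotlib 3.10.9. Both scripts were tested on simulated data. Positions come from GENCODE v44 and promoters from RefSeq, both on GRCh38.

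The members and lists were chosen with earlier results of these data known. Values per library are given for members that met the criteria of the study, passed the adjusted threshold within a line or had the 3 smallest p in an averaged contrast, and for HMGCS1, SQLE, SREBF2, INSIG1, INSIG2, SOAT1, SOAT2, NPC1 and NPC1L1. The values of TM7SF2, SREBF1 and the genes around INSIG1, and those per library of members called only between the lines, were added after they were seen. Alternatives were a pseudocount of 0.1 TPM, no filter, median-of-ratios scaling, quantile normalization, no trend, a replicate block, only the groups compared, and leaving out each library. No pair of libraries was identical. The values of 1 other gene of the pathway are not reported here.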

Additional observations from a re-analysis of the deposited data

How the results depend on the processing

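Libraries were to be paired by number if the deviations of every same-numbered pair correlated at over 0.1, and this was not met. The correlations were -0.11 to 0.34 over 15 pairs in Caco-2 cells and 0.032 to 0.63 over 18 pairs in HepG2 cells. They exceeded 0.1 in 8 and 15 of these pairs. Their medians were 0.10 in Caco-2 and 0.34 in HepG2 cells, against -0.13 and -0.24 between libraries of different numbers. The mean correlation was higher with a library's own number than with the other numbers pooled for 9 of 11 and 12 of 12 libraries. Single numbers could differ from that. Co-cultured control HepG2 library 1 correlated at 0.12, 0.034 and 0.032 with libraries numbered 1. With those numbered 2 it correlated at 0.21, 0.19 and 0.22. With the replicate block, co-culture averaged over treatments gave 1 member called lower in Caco-2 cells (FDPS) and 5 in HepG2 cells (HMGCS1, MSMO1, TM7SF2, NPC2 and FDFT1). Over all genes it called 60 of the 15081 tested in Caco-2 and 492 of the 14255 tested in HepG2 cells. The block gave 2 members meeting the criteria of the study in Caco-2 and 10 in HepG2 cells, and Benjamini-Hochberg adjustment gave 0 in HepG2 cells. For these criteria, the shares of all genes with the block or with a library left out are not given. The counts of members are therefore not set against a background. Leaving out each library gave 0 to 8 in Caco-2 and 1 to 5 in HepG2 cells. It gave 0 to 1 members for the difference of the co-culture effect between lines (1 without library 3 of mono-cultured control HepG2 cells) and medians of -0.34 to -0.062 for co-culture without FFAs in Caco-2 cells. That median was -0.34 with the libraries numbered 1 and 2 alone, a setting added after the data had been seen. The causes were not tested. Calls between the lines ranged from 14 to 18 members over the left-out libraries, without the share of all genes in each of these settings. Under the alternatives run, no difference changed direction among the 17 members called between the lines or the 3 members with the smallest p in each averaged contrast. Among the other members, the difference between the lines changed direction under at least 1 alternative for EBP, HSD17B7, MVK and NSDHL, and that of EBP was 0.09 after median-of-ratios scaling. Depth is unknown, so no limit from counting can be given.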
